A study of Homo sapiens with 45 samples.

Results

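The small subunit of the cytosolic ribosome is built on 1 ribosomal RNA and a shell of proteins, each encoded by its own gene. The 27 genes described here were chosen by name: RPS2, RPS3, RPS3A, RPS6, RPS7, RPS9, RPS10, RPS12, RPS13, RPS14, RPS15, RPS15A, RPS16, RPS18, RPS19, RPS20, RPS21, RPS23, RPS24, RPS25, RPS26, RPS27, RPS27A, RPS28, RPS29, RPSA and FAU. They are 27 of 23045 gene rows in the deposited count and TPM tables. RPS4X, which encodes a further protein of the subunit, and RPS27L, a paralog of RPS27, lie outside the list and their values are given once.

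H1 is an established line of human embryonic stem cells, and 45 single cells of it, at passage 40, were sequenced. They were either live (sorted as DAPI-) or fixed (DAPI+), and were prepared either by FRISCR, a method that recovers RNA from fixed single cells, or by lysis in the detergent Triton X-100. The 4 groups held 15 live FRISCR, 12 fixed FRISCR, 11 live Triton and 7 fixed Triton cells, with no further treatment or genetic change named in the labels. The sample titles carry other codes for the preparations, PLRC for FRISCR and RLT for Triton. The labels' extraction text describes cortical tissue, while all 12 embryonic stem cell markers looked up had counts, with POU5F1 in 45 of 45 cells. A code in the titles divides each group into 2 library sets, of 8 and 7, 6 and 6, 5 and 6, and 4 and 3 cells in the order above. The labels name no separate cultures, so a group counts as 1 sample however many cells it holds, and no difference between groups could be tested. Intervals are exact 95% binomial counting intervals. They cover the counting of reads only and not of molecules, since these reads carry no molecular identifiers. The spread between cells and between library sets is not covered.

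Total counts ranged from 3388417 to 6594043 per cell, and the group medians were 4786207 (live FRISCR), 4452107 (fixed FRISCR), 4994021 (live Triton) and 4301153 (fixed Triton). The fixed Triton cells stood apart. They had counts in a median of 6130 genes, against 9944 to 10790 in the other groups. Rows of ribosomal RNA and 5 other abundant rows, TVAS5 the largest, took a median of 42.5% of their counts, against medians of 5.20% (live FRISCR), 5.54% (fixed FRISCR) and 11.5% (live Triton). The summed level of the 12 stem cell markers had medians of 6418, 6347 and 5523 counts per 1000000 (CPM) in live FRISCR, fixed FRISCR and live Triton cells and 1936 CPM in fixed Triton cells. Of 6 mesendoderm markers 5 were at 0 in every cell and EOMES had counts in 4 cells. Of 6 neural markers SOX1 was at 0 and 5 had counts, TUBB3 in 44 cells (21.4 to 204 CPM by group) and FABP7 in 37. Of 6 fibroblast markers COL3A1, DCN and LUM were at 0 and THY1 was the highest (209 to 580 CPM by group). Of 4 blood markers CD3E and HBB were at 0 and CD68 had counts in 42 cells, and of 3 trophoblast markers CGA was at 0 and KRT7 had counts in 24 cells.

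Ribosomal protein genes are among the most strongly expressed genes of a growing cell, and their products are needed in equal numbers, 1 of each per subunit. Their mRNAs are short. Most begin with a 5′ terminal oligopyrimidine (TOP) tract, a C followed by a run of pyrimidines, through which the mTOR pathway and the protein LARP1 control their translation together. Embryonic stem cells divide rapidly and keep making ribosomes.

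The start of each gene is shown first because the TOP tract is the feature that these genes are known to share. RefSeq (GRCh38.p14) lists a start for 24 of the 27 members, and RPS2, RPS15A and RPS20 were not matched. A C at the start with at least 4 further pyrimidines was found in 19 of 24 members (79.2%), against 5.14% of 27305 genes and 28 of 38 large subunit genes (73.7%). The word CTTT on the strand of the gene, which can lie within the tract, was found within 30 bases around the start in 18 of 24 members and in 15.1% of all genes. The same word on the other strand, AAAG, was found in 1 member (4.17%) and in 11.9% of all genes. RPS29, RPS28, RPS15, RPS26 and RPS7 had no such tract at the listed start. No start was measured in these data. The windows below run from 10 bases before the start to 20 bases from it, with the run of pyrimidines at the start in capitals. They are those of the 4 members with the highest and the 4 with the lowest ratio of fixed to live Triton cells among matched members.
RPS29, chr14:49598691-49598720, minus strand: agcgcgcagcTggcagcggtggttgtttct
RPS27, chr1:153990752-153990781, plus strand: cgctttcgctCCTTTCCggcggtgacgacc
RPS28, chr19:8321486-8321515, plus strand: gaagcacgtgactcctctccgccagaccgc
RPS18, chr6:33272065-33272094, plus strand: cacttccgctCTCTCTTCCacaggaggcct
RPS3, chr11:75399508-75399537, plus strand: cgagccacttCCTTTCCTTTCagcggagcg
RPS3A, chr4:151099618-151099647, plus strand: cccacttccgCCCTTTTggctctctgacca
RPS6, chr9:19380217-19380246, minus strand: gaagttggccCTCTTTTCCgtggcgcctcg
RPS9, chr19:54200848-54200877, plus strand: gcttccgcgcCTCTTTCTCagtgaccgggt
The 4 lowest all begin with a tract and the 4 highest are split, with RPS27 and RPS18 carrying one. Over the 24 members, the log2 ratio of fixed to live Triton cells had a median of 1.10 in the 19 with a tract (0.26 to 2.25) and 1.27 in the 5 without (0.75 to 2.50), so the ranges overlapped.

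All 27 members had counts in all 45 cells, and the lowest count of any member in any cell was 388. TPM divides counts by transcript length and is the scale on which members can be set beside each other. By mean TPM over the 45 cells, 16 members were among the 100 highest rows. RPS27, a zinc-binding protein of the body of the subunit, was the highest at 6919 TPM. RPS18, a protein of the head, stood at 4576 TPM, and RPS14, a protein of the platform, at 4483 TPM. RPS25, which some viral internal ribosome entry sites need, stood at 4007 TPM and RPS3, at the mRNA entry channel, at 3328 TPM. The lowest were RPS23 at 398 TPM, a protein of the decoding centre, RPS9 at 1062 TPM, known for its part in decoding accuracy, RPS28 at 1166 TPM, RPS21 at 1198 TPM and FAU at 1242 TPM. FAU encodes the small subunit protein fused to a ubiquitin-like domain. The other 17 members lay between, and the highest was 17.4 times the lowest.

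RPS23 was last by TPM but not by count. The ratio of a gene's count to its TPM within a cell gives the transcript length the authors' quantification assumed, up to a factor per cell, and it is given here relative to the median of 12083 genes with a value. RPS23 had an implied length of 1.16, and the other 26 members had 0.07 (RPS29) to 0.37 (RPSA). By CPM, which takes no account of length, RPS23 was the 11th of the 27 members. GENCODE (release 29) lists coding transcripts of 443 to 3437 bases for RPS23, and which of them the authors' annotation used is not given in the sources used here. Without RPS23 the highest mean TPM was 6.51 times the lowest. The implied lengths of RPS23 in single cells ran from 1.13 to 1.19, and RPS23 was last of the 27 members by mean TPM in each group.

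**Figure D1:**
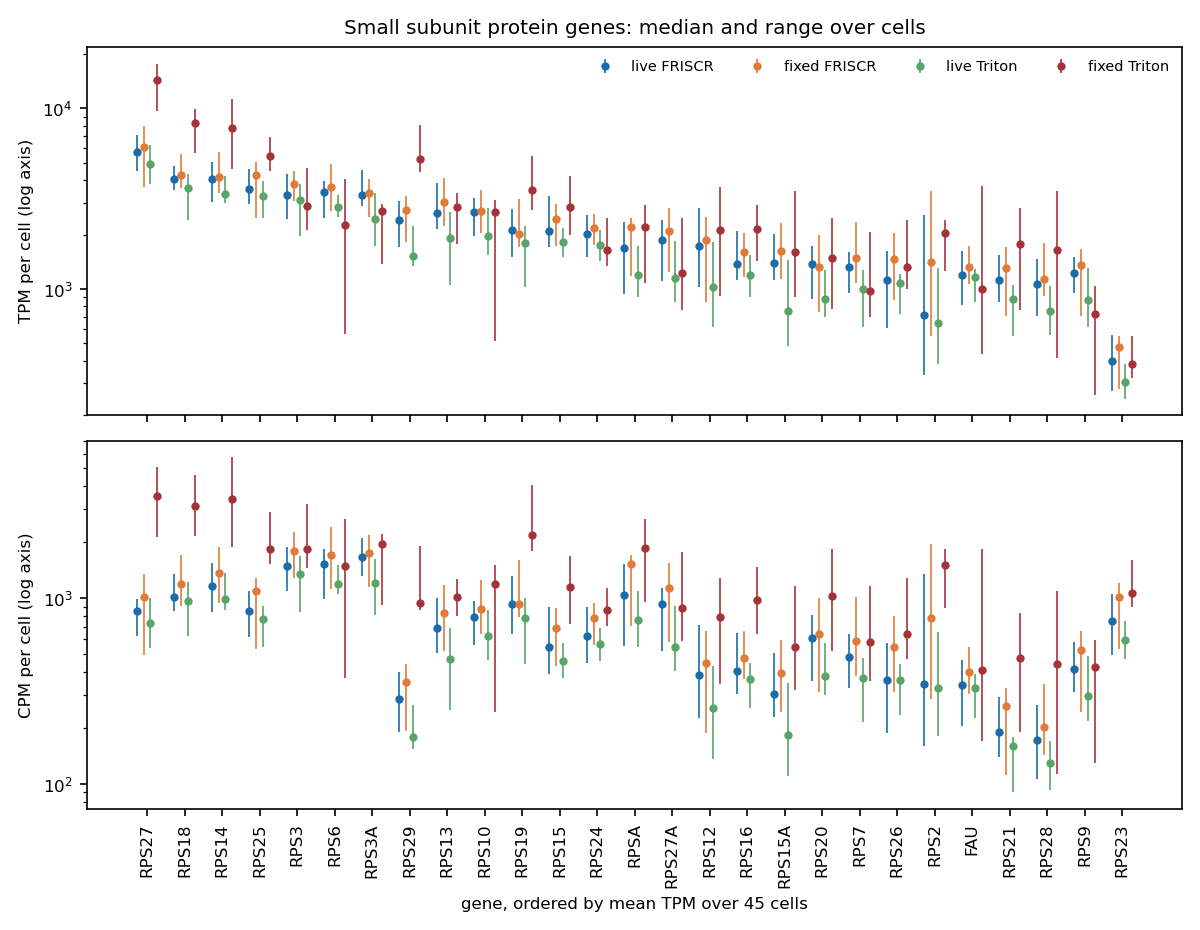
Level of each of the 27 genes per cell as TPM (top) and CPM (bottom), on log axes, with the median (point) and the lowest and highest cell (bar) of 15 live FRISCR, 12 fixed FRISCR, 11 live Triton and 7 fixed Triton cells. RPS23 is last by TPM and 11th by CPM, and RPS27 has the highest median TPM in each group.

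The order of the members differed little between groups, and most in fixed Triton cells. RPS27, RPS18, RPS14 and RPS25 held the first 4 places by mean TPM in each of the 4 groups, and RPS23 the last. Spearman's rho of mean TPM over the 27 members was 0.956 between live FRISCR and live Triton cells, 0.973 between fixed and live FRISCR cells and 0.837 between fixed and live Triton cells. These are descriptions over genes of the same libraries. RPS29, a small zinc-binding head protein, stood 10th, 9th and 13th in live FRISCR, fixed FRISCR and live Triton cells and 5th in fixed Triton cells. RPS27A, made as a fusion with ubiquitin, stood 14th, 15th and 15th, and 24th in fixed Triton cells. The SD over members of log2 mean TPM was 0.82, 0.79 and 0.90 in live FRISCR, fixed FRISCR and live Triton cells and 1.08 in fixed Triton cells.

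Some counts are estimates shared between rows. RPSA counts were not whole numbers in 44 of 45 cells, RPS10 counts in 38, RPS6 and RPS24 counts in 34 each and RPS20 counts in 33, while RPS12 was not whole in 4. All 27 members had at least 1 count that was not whole, and over all genes 37.1% of nonzero counts were not whole. A value counted as whole within 0.01. The pseudogene row RPSAP58 held 47.4 CPM of the summed counts, against 1218 CPM as the mean of RPSA, and the other small subunit pseudogene rows looked up held at most 1.33 CPM. How the authors' counting divided reads between the members and near-identical copies is not given in the sources used here. The levels of the members are uncertain by that share.

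Together the 27 members took a median of 1.85% of a cell's counts in live FRISCR cells (1.45% to 2.52%), 2.44% in fixed FRISCR cells (1.45% to 2.92%), 1.63% in live Triton cells (1.30% to 1.89%) and 3.58% in fixed Triton cells (3.02% to 4.93%). Every fixed Triton cell lay above every cell of the other 3 groups, which overlapped one another. With the rRNA-named and 5 abundant rows left out of the totals, the medians were 1.96%, 2.55%, 1.78% and 6.37%. The ratio of small to large subunit counts was 0.520, 0.543 and 0.509 in live FRISCR, fixed FRISCR and live Triton cells and 0.600 in fixed Triton cells (0.559 to 0.707), a range that overlapped that of fixed FRISCR cells (0.500 to 0.596). The tables hold no spike-in, so a gain of these mRNAs and a loss of others cannot be told apart.

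**Figure D2:**
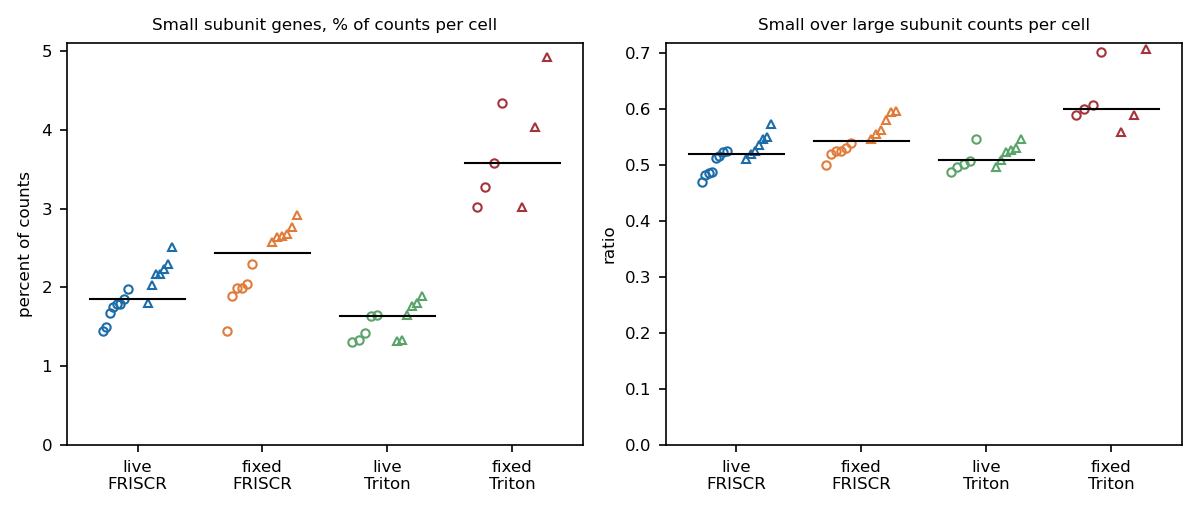
Percent of a cell's counts taken by the 27 genes (left) and the ratio of small to large subunit counts (right), 1 point per cell sorted by value, circles for library set 1 and triangles for set 2, with the median of each group as a line. The 7 fixed Triton cells lie at 3.02% or more and every other cell at 2.92% or less.

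Fixed FRISCR cells were set against live ones to see how these mRNAs come through fixation when their RNA is recovered by FRISCR. All 27 members were higher in fixed cells, by a small and similar amount. The median log2 ratio of summed CPM was 0.29 (0.11 to 0.62), against -0.02 over the 7518 genes that reached 20 CPM in fixed or live cells. No member was more than 2-fold higher, as 3.34% of those genes were, and no member was lower. Of the 27, 26 were higher in both library sets, against 28.1% of all genes. RPS15, a protein at the decoding site, was the exception, at -0.05 in set 1 and 0.29 in set 2. The median of the members was 0.16 in set 1 and 0.32 in set 2. Short genes in general were also higher. Of the 7518 genes, the 1504 shortest had an implied length up to 0.545 and include all members except RPS23. Their median was 0.23, with 0.25 in set 1 and 0.18 in set 2. The members thus lay below these short genes in set 1 and above them in set 2. Whether the members differ from other short genes was not tested.

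RPS26, which contacts the mRNA at its exit from the subunit, differed most. Live FRISCR cells had 187.5 CPM at the lowest, 364 at the median and 571 at the highest, and fixed FRISCR cells 312, 545 and 798.5 CPM. The groups overlapped, with 6 of 12 fixed cells above the highest live cell, and the summed ratio was 1.54-fold (1.51 to 1.56). RPS2, at the mRNA entry channel, was 1.52-fold higher (1.498 to 1.538), at 865 against 570 CPM, and its cells spread widely within both groups. RPSA, also known as a laminin receptor precursor, was 1.28-fold higher and RPS7 1.27-fold. At the other end RPS3A was 1.08-fold higher (1.07 to 1.09), RPS19, the gene most often mutated in Diamond-Blackfan anaemia, 1.09-fold, RPS20 1.10-fold and RPS15 1.11-fold (1.10 to 1.13). Under the mean of the authors' TPM, RPS3A (-0.01) and RPS20 (-0.003) were no longer higher, and 25 of 27 members were.

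Fixed and live Triton cells give the same comparison for detergent lysis alone. Here too all 27 members were higher in fixed cells, while most genes were lower. The median log2 ratio of the members was 1.27 (0.26 to 2.50), against -1.50 for 7256 genes tested. More than 2-fold higher were 18 of 27 members, against 12.4% of all genes, and 0 members were more than 2-fold lower, against 58.5%. Higher in both library sets were 25 members, against 11.3%, and the exceptions were FAU and RPS9. For 14 members every fixed cell lay above every live cell, against 0.992% of all genes. These 14 were RPS29, RPS27, RPS2, RPS18, RPS21, RPS14, RPS19, RPS25, RPS16, RPS15, RPS26, RPS13, RPS23 and RPS24. These values stand beside the larger share of TVAS5 and ribosomal RNA rows, the fewer genes detected and the lower stem cell markers in fixed Triton cells. Their part in the result was not tested.

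RPS29 differed most. Live Triton cells had 153 CPM at the lowest, 178 at the median and 266 at the highest, and fixed Triton cells 863, 942 and 1909 CPM. The groups did not overlap, and the summed ratio was 5.64-fold (5.52 to 5.76). RPS27 had 541, 734 and 998 CPM in live and 2121, 3544 and 5061 CPM in fixed Triton cells. It was 4.76-fold higher (4.71 to 4.82) with no overlap. RPS2 had 180, 329 and 656 CPM in live and 880, 1505 and 1845 CPM in fixed Triton cells, a ratio of 4.04-fold (3.98 to 4.11). RPS28, a small protein near the mRNA exit, was 3.79-fold higher (3.68 to 3.89), with 1 fixed cell at 113 CPM within the live range of 92.4 to 170 CPM.

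RPS9 differed least. It had 218 CPM at the lowest, 297 at the median and 485 at the highest in live Triton cells, and 129, 426 and 596 CPM in fixed Triton cells, so the groups overlapped widely. Its ratio was 1.20-fold (1.17 to 1.23), with a log2 of 0.63 in set 1 and -0.14 in set 2. RPS6, the protein that S6 kinases phosphorylate downstream of mTOR, was 1.29-fold higher (1.28 to 1.31), with fixed cells from 369 to 2654 CPM around live cells of 1053 to 1505 CPM. RPS3A was 1.42-fold higher, and RPS3 stood at 2023 CPM in fixed and 1349 CPM in live Triton cells. Under the mean of the authors' TPM these 4 were not higher, with log2 ratios of -0.36 for RPS9, -0.24 for RPS6, -0.09 for RPS3A and -0.02 for RPS3. On that scale the median of the members was 0.73 and 8 of 27 were more than 2-fold higher.

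FAU differed between library sets and leaned on 1 cell. Its fixed Triton cells had 170, 352, 362 and 409 CPM in set 1 and 474, 845 and 1840 CPM in set 2. Live Triton cells had 227 to 391 CPM. The ratio was 2.10-fold (2.06 to 2.14) in all and 1.40-fold without fixed Triton replicate 6. It was -0.05 on the log2 scale in set 1 and 1.88 in set 2.

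**Figure D3:**
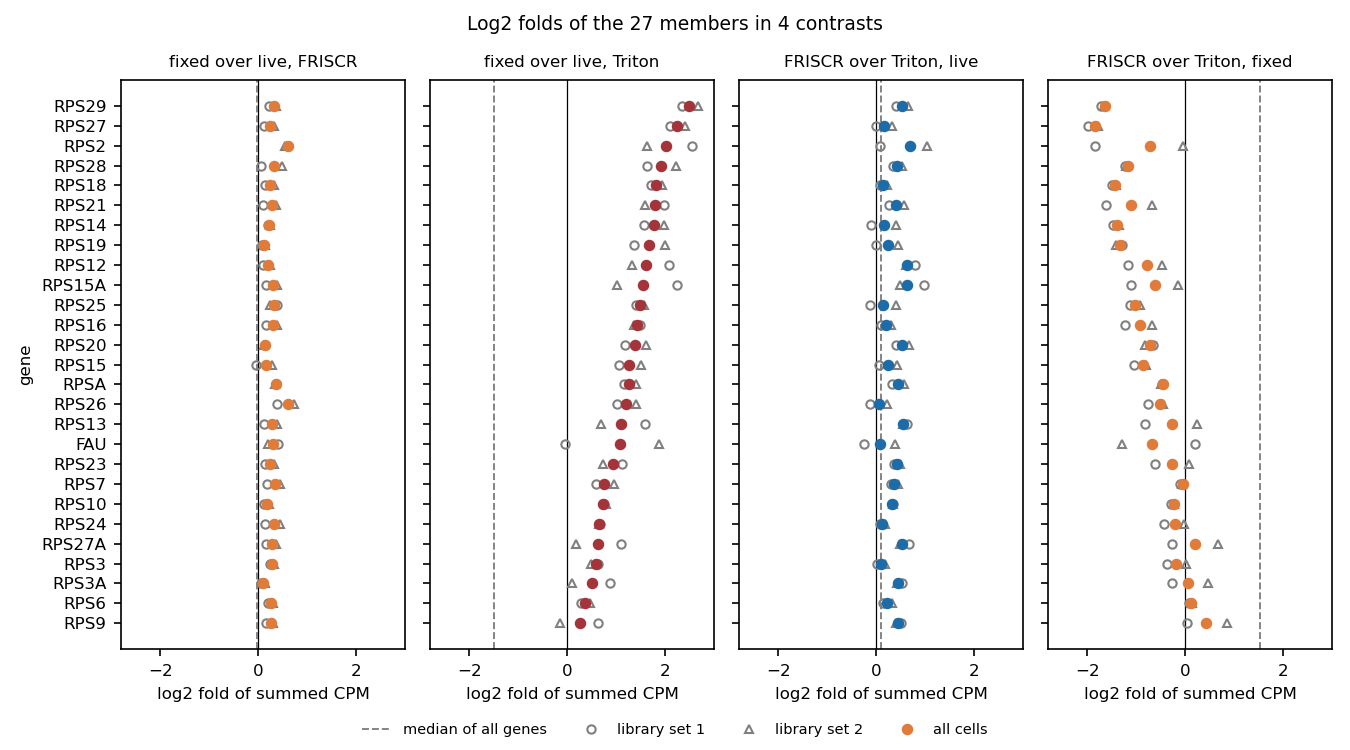
Log2 ratio of summed CPM for each of the 27 genes in 4 comparisons, for all cells (filled) and for library sets 1 and 2 (open circles and triangles), with genes ordered by the ratio of fixed to live Triton cells. The dashed line is the median of all genes tested: -0.02, -1.50, 0.10 and 1.53 from left to right.

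The ratios of fixed to live Triton cells followed length within the members. Spearman's rho with implied length over the 27 members was -0.56, and it was -0.49 in set 1 and -0.48 in set 2. The members share libraries, and the value is a description. The 9 shortest members, led by RPS29, RPS27 and RPS28, had a median log2 ratio of 1.62, the 9 of middle length 1.07 and the 9 longest 0.93. RPS2 (2.02) and RPS19 (1.68) were high among the longest 9, and RPS9 (0.26) and RPS24 (0.64) low among the middle 9. Over 7227 genes rho was -0.19. Of 5 equal bins of these genes by length, the shortest, with an implied length up to 0.530, had a median of 0.02, and the other 4 had medians between -2.17 and -1.52. All members except RPS23 fall in that shortest bin by length. Between fixed and live FRISCR cells rho over the members was -0.06, with 0.23 in set 1 and -0.13 in set 2, so no order by length was seen there, while over all genes it was -0.25.

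**Figure D4:**
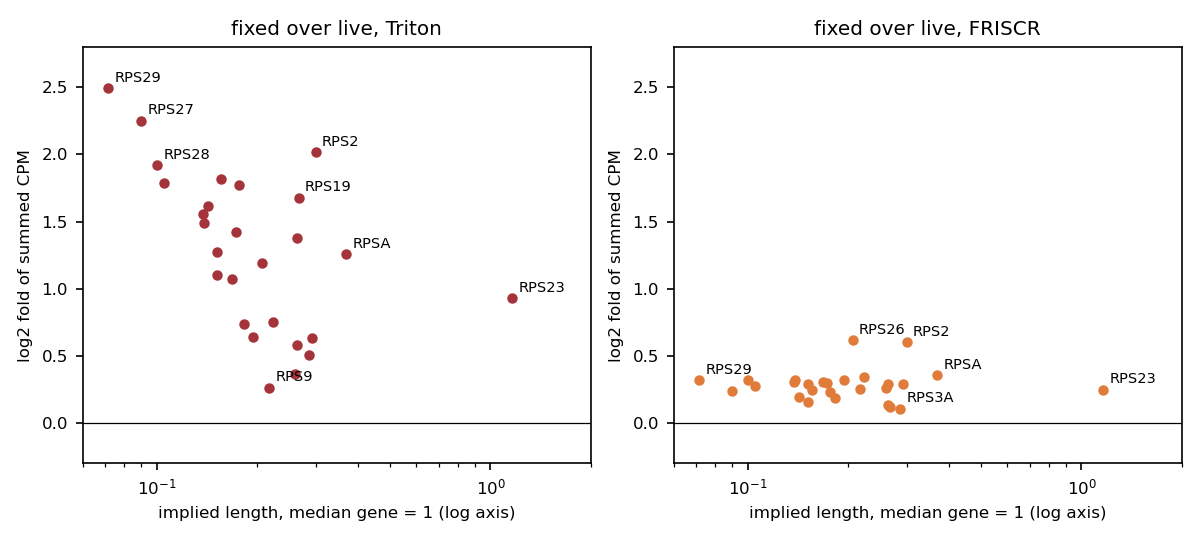
Log2 ratio of fixed to live summed CPM against implied length (median gene 1, log axis), 1 point per gene, for Triton (left) and FRISCR cells (right). In Triton cells RPS29, RPS27 and RPS28 are short and high, with a rho of -0.56 over the 27 genes, and in FRISCR cells rho is -0.06.

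The difference of both fixation effects, Triton minus FRISCR, was above 0 for all 27 members, against 1438 of 6599 genes tested in both. Its median was 1.12 over the members (RPS9 0.01 to RPS29 2.18) and -1.55 over those genes. The difference was above 0 in both library sets for 23 members, against 545 of the 6599 genes. The log2 ratios themselves stood at 0.32 (FRISCR) and 2.50 (Triton) for RPS29 and at 0.25 and 0.26 for RPS9. With 1 sample per group this difference was not tested.

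By position in the subunit, a grouping made with these values known, the 12 head proteins had a median log2 ratio of fixed to live Triton cells of 1.45 and the 15 body and platform proteins 1.10, with 9 of each more than 2-fold higher. The head members were also shorter, with a median implied length of 0.16 against 0.21. Between fixed and live FRISCR cells the medians were 0.27 and 0.29.

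In live cells the FRISCR and Triton preparations can be set against each other without fixation. All 27 members were higher in live FRISCR cells, at a median log2 ratio of 0.37 (0.05 to 0.69), against 0.10 for 7447 genes. No member was more than 2-fold higher, against 6.57% of all genes, and 22 were higher in both library sets, against 33.2%. The exceptions were RPS14, RPS25, RPS26, RPS27 and FAU, which were lower in set 1. RPS2 was 1.61-fold higher (1.58 to 1.64), but by a log2 ratio of 0.07 in set 1 and 1.04 in set 2. RPS12 was 1.56-fold higher, RPS15A 1.55-fold and RPS13 1.46-fold. RPS12, a head protein, had 227, 385 and 718 CPM at the lowest, median and highest live FRISCR cell and 136, 255.5 and 429 CPM in live Triton cells, and 6 of 15 FRISCR cells lay above all Triton cells. The lowest ratios were those of RPS26 at 1.04-fold (1.02 to 1.06), FAU at 1.05-fold, RPS3 at 1.08-fold and RPS24 at 1.09-fold. With the rRNA-named and abundant rows left out of the totals, RPS26 (-0.05) and FAU (-0.03) were lower in FRISCR cells and 25 members higher. Without live FRISCR replicate 10, RPS26 was at -0.02.

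In fixed cells the order of the preparations was the other way round. The members had a median log2 ratio of FRISCR to Triton of -0.69 (-1.85 to 0.42), against 1.53 for 7272 genes. More than 2-fold lower in FRISCR cells were 8 members, RPS27, RPS29, RPS18, RPS14, RPS19, RPS28, RPS21 and RPS25, against 10.6% of all genes. Without fixed Triton replicate 6 the count was 5. Lower in both sets were 19 members, against 10.1%. For RPS27, RPS29, RPS18, RPS19 and RPS25 every FRISCR cell lay below every Triton cell, against 0.619% of all genes. RPS27 had 495, 1010 and 1351 CPM at the lowest, median and highest fixed FRISCR cell, below the 2121 CPM of the lowest fixed Triton cell, and was 3.61-fold lower (3.57 to 3.65). RPS29 was 3.14-fold lower, RPS18 2.69-fold and RPS14 2.62-fold. This comparison shares its fixed Triton cells with that of fixed and live Triton cells, so the values are not separate evidence.

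RPS9 (1.34-fold), RPS27A (1.14-fold), RPS6 (1.09-fold) and RPS3A (1.04-fold) were higher in fixed FRISCR than in fixed Triton cells. Their direction depended on the scaling. By edgeR's TMM factors, by DESeq2's median-of-ratios factors and by totals without the abundant rows, all 27 members were lower in FRISCR cells, and RPS9 had log2 ratios of -0.28, -0.75 and -0.28. Under the authors' TPM 10 members were higher and 17 lower. The median of all genes moved with the scaling, from -1.50 to -0.87 (TMM) and -0.25 (median-of-ratios) between fixed and live Triton cells.

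RPS2 divided the FRISCR cells by library set. In live FRISCR cells it had 159 to 343 CPM in the 8 cells of set 1 and 398 to 1349 CPM in the 7 cells of set 2. In fixed FRISCR cells it had 285 to 679 CPM in the 6 cells of set 1 and 888 to 1963 CPM in the 6 cells of set 2. The sets did not overlap in either group, and the log2 ratio of set 2 to set 1 was 1.74 in live and 1.67 in fixed FRISCR cells. It was 0.77 in live Triton cells, where 3 of 6 set 2 cells lay above set 1, and -0.13 in fixed Triton cells. RPS2 was the only member more than 2-fold higher in set 2 in live FRISCR cells, against 8.96% of all genes, and in fixed FRISCR cells, against 12.6%. In live Triton cells no member was, against 9.45%, and in fixed Triton cells FAU was, against 37.8%.

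The other members were also higher in set 2 of FRISCR cells, by less. All 27 were higher in set 2 than in set 1 in live FRISCR cells, with a median log2 ratio of 0.33, and in fixed FRISCR cells, with 0.50, where the medians of all genes were both -0.02. In live Triton cells 20 of 27 were higher (0.19 against -0.14) and in fixed Triton cells 16 (0.19 against 0.27). In fixed FRISCR cells 10 members had every set 2 cell above every set 1 cell, against 0.393% of all genes: RPS2, RPS13, RPS15, RPS15A, RPS21, RPS23, RPS24, RPS26, RPS27 and RPS28. RPS26, for example, had 312 to 510 CPM in set 1 and 580 to 798.5 CPM in set 2. In the other groups 1 member each did: RPS2 in live FRISCR cells (0.195% of all genes), RPS13 in live Triton cells (0.85%) and FAU in fixed Triton cells (2.75%). The share of all 27 members was 1.77% in set 1 and 2.17% in set 2 of live FRISCR cells, and 1.99% and 2.67% in fixed FRISCR cells. What the code of the sets stands for is not given in the labels.

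**Figure D5:**
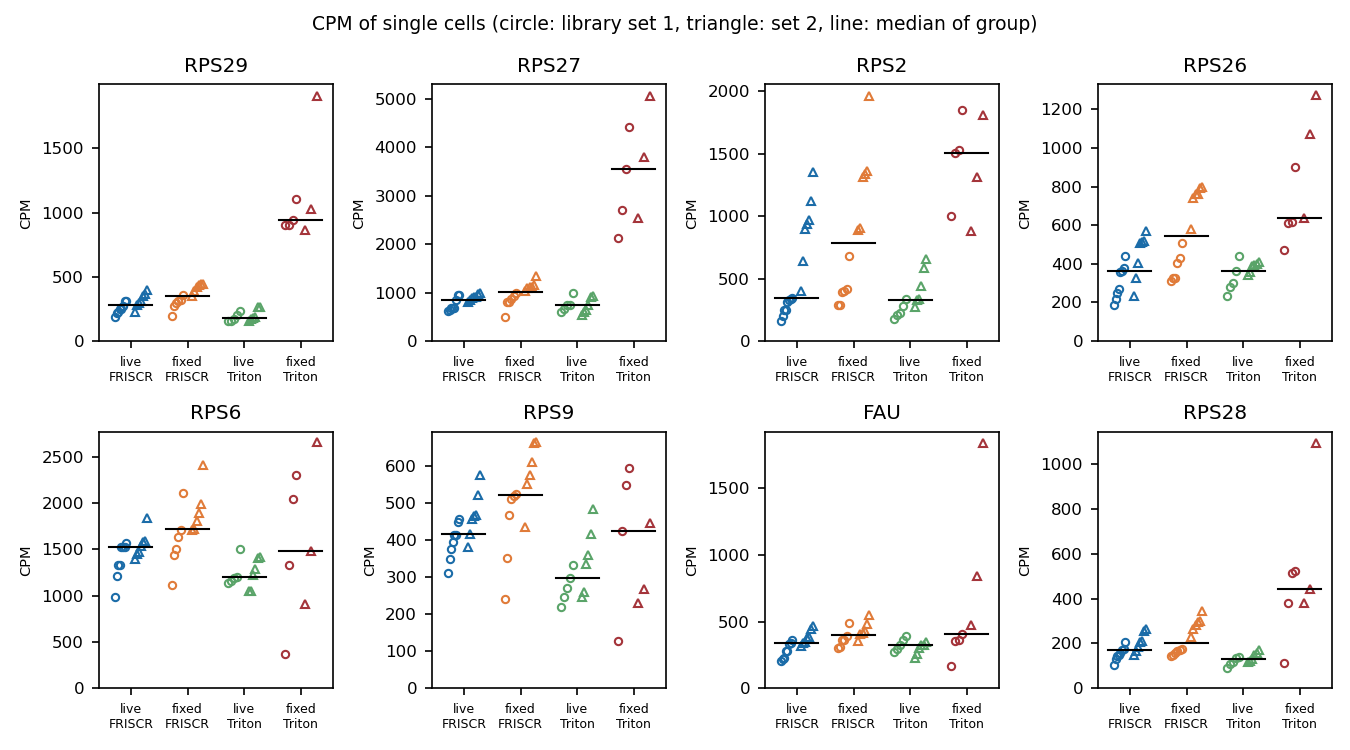
CPM of 8 genes in single cells, 1 point per cell sorted by value, circles for library set 1 and triangles for set 2, with the median of each group as a line. RPS29 and RPS27 separate fixed Triton cells from live ones, RPS2 separates the sets in FRISCR cells, and 1 fixed Triton cell leads in FAU, RPS28 and RPS29.

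From cell to cell the members varied less, at the median, than other genes within their range of CPM. The coefficient of variation of CPM had a median over members of 0.211 in live and 0.242 in fixed FRISCR cells, and of 0.200 in live and 0.337 in fixed Triton cells. For genes within the members' range of CPM it was 0.355, 0.325, 0.351 and 0.469 in the same order. These genes were not matched to the members by level within that range. This difference was not tested. In live FRISCR cells RPS2 (0.683), RPS12 (0.337) and RPS26 (0.332) varied most, and RPS18 (0.129), RPS6 (0.133) and RPS3 (0.149) least. RPS2 varied most in fixed FRISCR and live Triton cells as well, and FAU (0.895) in fixed Triton cells.

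Members tended to be high in the same cells. The median Spearman correlation of CPM over the 351 pairs of members was 0.518 over 15 live FRISCR cells, 0.657 over 12 fixed FRISCR cells, 0.527 over 11 live Triton cells and 0.286 over 7 fixed Triton cells. The cells of a group share library sets and differ in depth and in the share of abundant rows, and all members share each cell's total. No such value for pairs of other genes is given here. The median Pearson correlation of log2(CPM + 1) was 0.549, 0.695, 0.511 and 0.279 in the same order of groups. With the mean of each library set subtracted, a choice made after seeing the data, this Pearson correlation was 0.341, 0.392, 0.542 and 0.350. By Spearman correlation without that subtraction, RPS20 (0.638) and RPS2 (0.616) followed the other members most closely in live FRISCR cells, and RPS3A (0.373) least. The values of single members thus include the difference between library sets, which was largest for RPS2 in these cells.

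RPS4X, outside the list, had a log2 ratio of 0.43 between fixed and live Triton cells and of 0.31 between fixed and live FRISCR cells, both within the range of the members. The paralog RPS27L stood at 1.08 and -0.26, at 104 CPM in live Triton cells where RPS27 had 743 CPM.

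Genes that work with the small subunit did not all share its values. The 47 large subunit genes had a median log2 ratio of fixed to live Triton cells of 1.31, with 28 more than 2-fold higher, RPL28 the highest at 2.07, RPL4 the lowest at -0.83 and RPLP0 the most abundant at 1.59. The 29 measured genes of the mitochondrial small subunit had -0.15, from MRPS30 at -7.32 to MRPS21 at 0.85, with 10 more than 2-fold lower, where 58.5% of all genes were. The 41 assembly factors of the small subunit, which process its RNA, had -2.40, with 32 more than 2-fold lower, EMG1 the highest at 0.86, AATF the lowest with 129 CPM in live and 0.0686 CPM in fixed cells, and TSR1 the most abundant at -2.37. The 28 initiation partners, which load the mRNA, had -0.94, from EIF3D at -5.95 to EIF3B at 0.56 (-1.47 in set 1 and 1.86 in set 2), with the helicase EIF4A1 the most abundant at -2.15. Implied length had a median of 0.18 for the members, 0.23 for large subunit genes, 0.47 for mitochondrial small subunit genes, 0.86 for assembly factors and 0.87 for initiation partners.

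Other mRNAs with a TOP tract were a further list. The 18 measured, EEF1A1 the most abundant, had a median implied length of 0.51 and a median log2 ratio of fixed to live Triton cells of -0.57, with HNRNPA1 the lowest at -1.78, and 6 were higher. Their median ratio of fixed to live FRISCR cells was 0.09. Between live FRISCR and live Triton cells it was 0.36, with all 18 higher, beside 0.37 for the members. These differences between lists were not tested.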

How the data were processed

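The authors deposited estimated counts (expected counts, quantified before deposit) and TPM, 1 column per cell. Per the submitters' processing notes the build was GRCh37 (hg19). The software and annotation used were not given in the sources used here. Counts were rounded to whole numbers and summed within each group, and CPM is that sum per 1000000 counts. All 45 cells were kept. A gene entered a comparison if it reached 20 CPM in 1 of its groups, and 2-fold was the threshold. A group sum of 0 was set at 3 counts. Implied length is count over TPM in a cell, for counts of at least 20 and TPM of at least 1, set against 565 genes with a value in all cells and then against the median gene. Members and lists were chosen with earlier results of these data known. By rule the text names the 4 highest and 4 lowest members of each comparison, the 5 highest and 5 lowest by mean TPM, and the 3 most and 3 least variable. Some genes that this rule or the lists name are not reported here. The authors' TPM was used for levels. Scaling alternatives were TMM (edgeR, version 4.0.16) and median-of-ratios (DESeq2, version 1.42.0), in R 4.3.3. Python 3.11.15 with pandas 2.3.3, numpy 2.4.6, scipy 1.17.1 and matplotlib 3.10.9 did the rest. No p-value was computed, and the calculation was tested on simulated data.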

Additional observations from a re-analysis of the deposited data

Results flagged for a closer look

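Among the 7 fixed Triton cells, replicate 6 was far above the others for 3 of the 27 members. It had 1840 CPM of FAU where the next cell had 845, 1094 CPM of RPS28 where the next had 522, and 1909 CPM of RPS29 where the next had 1106. The gap to the next cell was 0.596, 0.583 and 0.768 of the whole range of the group. Of 28 measures looked at this way, the 27 members and their share of counts, 3 passed the limit for 7 cells, and chance flags about 1 in 20 groups. Without this cell the log2 ratio of fixed to live Triton cells was 0.48 for FAU, 1.56 for RPS28 and 2.29 for RPS29. The other groups held more than 10 cells and were not looked at in this way.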

How the results depend on the processing

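Of the alternatives to the summary values, 448 lay within the spread between cells or within 1.5 times a count, and 35 did not. Of those to single members, 665 did and 198 did not, and 1 more than 2-fold ratio changed sign. The 448 include dropping the filter on low values, which could not change a count of members. They also include counts of members that stayed at 0. The tally is therefore no measure of how firm the results are. Whatever their size, 24 of 108 member ratios changed sign under at least 1 of 7 settings, 42 times in all. The median log2 ratio of fixed to live Triton cells was 1.90 by TMM, 2.52 by median-of-ratios, 1.89 without the abundant rows and 0.73 by TPM, where 8 members were more than 2-fold higher. That of fixed FRISCR to fixed Triton cells was -1.40 by TMM, -1.86 by median-of-ratios, -1.40 without the abundant rows and -0.13 by TPM. The medians of all genes there were 0.82, 0.35, 0.82 and 1.91 in the same order. Members more than 2-fold lower numbered 17, 25, 17 and 2 in that order, and 13 in library set 1 alone. At 1.5-fold the number was 15. Between fixed and live FRISCR cells 1 member was more than 2-fold higher by the median of per-cell CPM and 2 at 1.5-fold, and between live FRISCR and live Triton cells 1 in library set 2 alone and 3 at 1.5-fold. For these altered settings, and with 1 cell left out, the share of all genes past the threshold was not computed. Spearman's correlation with length was 0.23 in set 1 for fixed over live FRISCR cells, and 0.49 and 0.53 in sets 1 and 2 for fixed FRISCR over fixed Triton cells. As a share of TPM the members took 6.01%, 6.69%, 4.70% and 8.07% in live FRISCR, fixed FRISCR, live Triton and fixed Triton cells. Their share of counts was 2.17% in set 2 of live FRISCR, 1.99% in set 1 of fixed FRISCR and 6.37% in fixed Triton cells without the abundant rows. Without RPS23, and chosen after seeing the data, the SD of log2 levels was 0.70, 0.67 and 0.79 in live FRISCR, fixed FRISCR and live Triton cells. With library set means subtracted, the median Pearson correlation of pairs was 0.341 in live and 0.392 in fixed FRISCR cells, against 0.549 and 0.695 before. FAU between fixed and live Triton cells was -0.052 in set 1 alone. The cause of these differences was not tested.

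Leaving out 1 cell at a time, the median log2 ratios ran from 0.25 to 0.32 (fixed over live FRISCR), 1.18 to 1.37 (fixed over live Triton), 0.32 to 0.41 (live FRISCR over Triton) and -0.75 to -0.51 (fixed FRISCR over Triton). Members more than 2-fold higher in fixed Triton cells numbered 17 to 18, and members more than 2-fold lower in fixed FRISCR cells 5 to 9. No paired analysis was possible because replicate numbers were given in accession order, which pairs no cells, and no test was made. At the lowest count of 388, depth does not limit the members, and the number of independent samples, 1 per group, does.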
